A study of Rattus norvegicus with 9 samples.

Results

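The genes described here are 10 genes of the actomyosin apparatus: the tropomyosin genes Tpm1, Tpm2, Tpm3 and Tpm4, the myosin light chain genes Myl9 and Myl6, the nonmuscle myosin II heavy chain genes Myh9 and Myh10, the myosin light chain kinase gene Mylk and the caldesmon gene Cald1. They were chosen by symbol as a functional family, and all 10 were found among the 35362 genes of the count table. RNA was sequenced from adipose-derived mesenchymal stem cells (ASCs) of male Sprague Dawley rats aged 6 weeks. The cells came from subcutaneous fat of the groin (SASCs), from perirenal fat (PASCs) and from epididymal fat (EASCs), with 3 samples in each group, all at passage 3 and without treatment or genetic change. The cultures were obtained by adherence after collagenase digestion with no sort described, so each sample is a bulk culture that may hold several cell types. The study's methods describe the replicates of each group as cultures in multiwell plates, and the labels do not tie the samples to individual rats. The p-values therefore measure the spread between these samples, which may be technical.

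Tropomyosin is a coiled-coil protein that lies along actin filaments and governs which motors and binding proteins reach them. Nonmuscle myosin II is a hexamer of heavy chains, essential light chains and regulatory light chains, and it pulls on actin filaments once its regulatory light chains are phosphorylated, for example by myosin light chain kinase. Caldesmon binds actin, tropomyosin and myosin and restrains the motor. In stromal cells in culture these proteins build stress fibers, and several of their genes are known targets of serum response factor.

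Total counts lay between 17591916 and 30299032 per sample, at which 3 counts amount to 0.104 to 0.159 CPM, the unit of all levels below (reads of a gene scaled to a common library total, after TMM normalization). The share of counts on rRNA genes was 10.4 to 15.5% for SASCs, 22.4 to 32.9% for PASCs and 15.9 to 40.3% for EASCs, and its part in the results below was not tested. All 7 mesenchymal stem cell marker genes were tested, and their summed level was 4135 to 4262 CPM for SASCs, 3784 to 3960 CPM for PASCs and 4958 to 5027 CPM for EASCs. The markers did not move together, with 4 higher and 3 lower in EASCs than in SASCs by adjusted p, where 35.5% of all genes were higher and 34.3% lower. In PASCs 4 were higher and 2 lower, where 34.6% of all genes were higher and 34.6% lower. Without TMM these counts became 1 and 3, on a scale where the median log2 fold change of all genes was -0.33. Pdgfra averaged 1543 CPM for SASCs, 278 for PASCs and 235 for EASCs, and Itgb1 1046, 1814 and 2951.

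The upstream sequences of the genes were read from RefSeq (rat build GRCr8), which gave 13 windows for 9 of the 10 genes and none for Myl9. The 250 bases before each start were searched on both strands for the MCAT motif (CATTCC, the site of TEAD factors), the GC box (GGGCGG), the TATA box (TATAAA), the CCAAT box (CCAAT) and the CArG box, the site of serum response factor. MCAT was found in 4 of the 13 windows, those of Tpm1, Mylk, Myh10 and Cald1, and in 12.1% of all 33469 windows. The GC box was found in 8 of 13 windows and in 30.5% of all, the CCAAT box in 6 of 13 and in 34% of all, the TATA box in 2 of 13 and in 12.9% of all, and the CArG box in 0 of 13 and in 1.5% of all. A pair of the Tpm3 windows overlap and share GC boxes. Counted by gene the GC box was found in 7 of 9, whereas the 30.5% is a share of windows and not of genes. These are matches of letters in a fixed window, not binding sites. The 150 bases before the start are shown for Tpm1 and Mylk, which were higher in both visceral groups and hold the motif, for Myh10, which holds it and did not pass the test in PASCs against SASCs, and for Tpm2, which holds none and had one of the largest changes. Each is written 5′ to 3′ on the strand of the gene, and capitals mark MCAT, which in Tpm1 reads on the opposite strand.
Tpm1 upstream window, chr8:76543416-76543565, - strand: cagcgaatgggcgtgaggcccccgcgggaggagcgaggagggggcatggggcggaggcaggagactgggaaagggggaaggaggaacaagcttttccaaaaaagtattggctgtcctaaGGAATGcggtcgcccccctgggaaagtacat
Mylk upstream window, chr11:79498575-79498724, - strand: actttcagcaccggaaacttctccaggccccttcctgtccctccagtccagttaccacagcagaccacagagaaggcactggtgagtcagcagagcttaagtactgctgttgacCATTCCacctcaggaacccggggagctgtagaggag
Myh10 upstream window, chr10:53893114-53893263, + strand: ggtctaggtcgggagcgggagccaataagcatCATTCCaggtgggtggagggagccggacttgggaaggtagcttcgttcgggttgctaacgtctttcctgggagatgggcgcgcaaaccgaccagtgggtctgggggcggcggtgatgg
Tpm2 upstream window, chr5:62575727-62575876, - strand: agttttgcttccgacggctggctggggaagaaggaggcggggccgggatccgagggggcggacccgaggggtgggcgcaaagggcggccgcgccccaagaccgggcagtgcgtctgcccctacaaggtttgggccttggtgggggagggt

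MCAT ended 26 bases before the start in Tpm1, 31 bases in Mylk and 113 bases in Myh10. In Cald1 it lay 195 to 190 bases before one of the 2 starts, outside the length shown for the others. Of the 4 windows shown, those of Tpm1, Myh10 and Tpm2 also held a GC box within the bases searched.

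The first comparison asked how the genes differed between EASCs and SASCs. All 10 were tested, and all 10 were higher in EASCs with an adjusted p under 0.05 (edgeR quasi-likelihood test, Benjamini-Hochberg adjustment over 14770 genes), where 35.5% of all genes tested were higher. With a fold change above 2 as a second condition, as for the differentially expressed genes (DEGs) of the study, 9 of 10 were called, beside 13.6% of all genes tested called higher. The median log2 fold change of the 10 genes was 2.13, and that of all genes tested was 0.01. In PASCs against SASCs, 9 of 10 were higher by adjusted p beside 34.6% of all genes, and the same 9 were DEGs beside 12% of all genes called higher, with a median of 1.57 against -0.01 for all genes. Without TMM 7 were DEGs in EASCs and 6 in PASCs. On that scale 1349 and 1262 of all 14770 genes were called higher, beside 2002 and 1779 with TMM. Tpm3 and Myl6 in both and Cald1 in PASCs fell under a 2-fold change, and Myh10 no longer passed in EASCs. In EASCs against PASCs, 6 of 10 were higher by adjusted p beside 16.1% of all genes, and 2, Myl9 and Mylk, were DEGs beside 5.19% of all genes called higher. None of the 10 was lower by adjusted p in any of the 3 comparisons under TMM, where 34.3%, 34.6% and 14.5% of all genes were lower. The comparisons share their SASCs, PASCs or EASCs samples and are not independent. In bulk cultures, fewer cells of a type and less RNA per cell cannot be told apart.

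**Figure D1:**
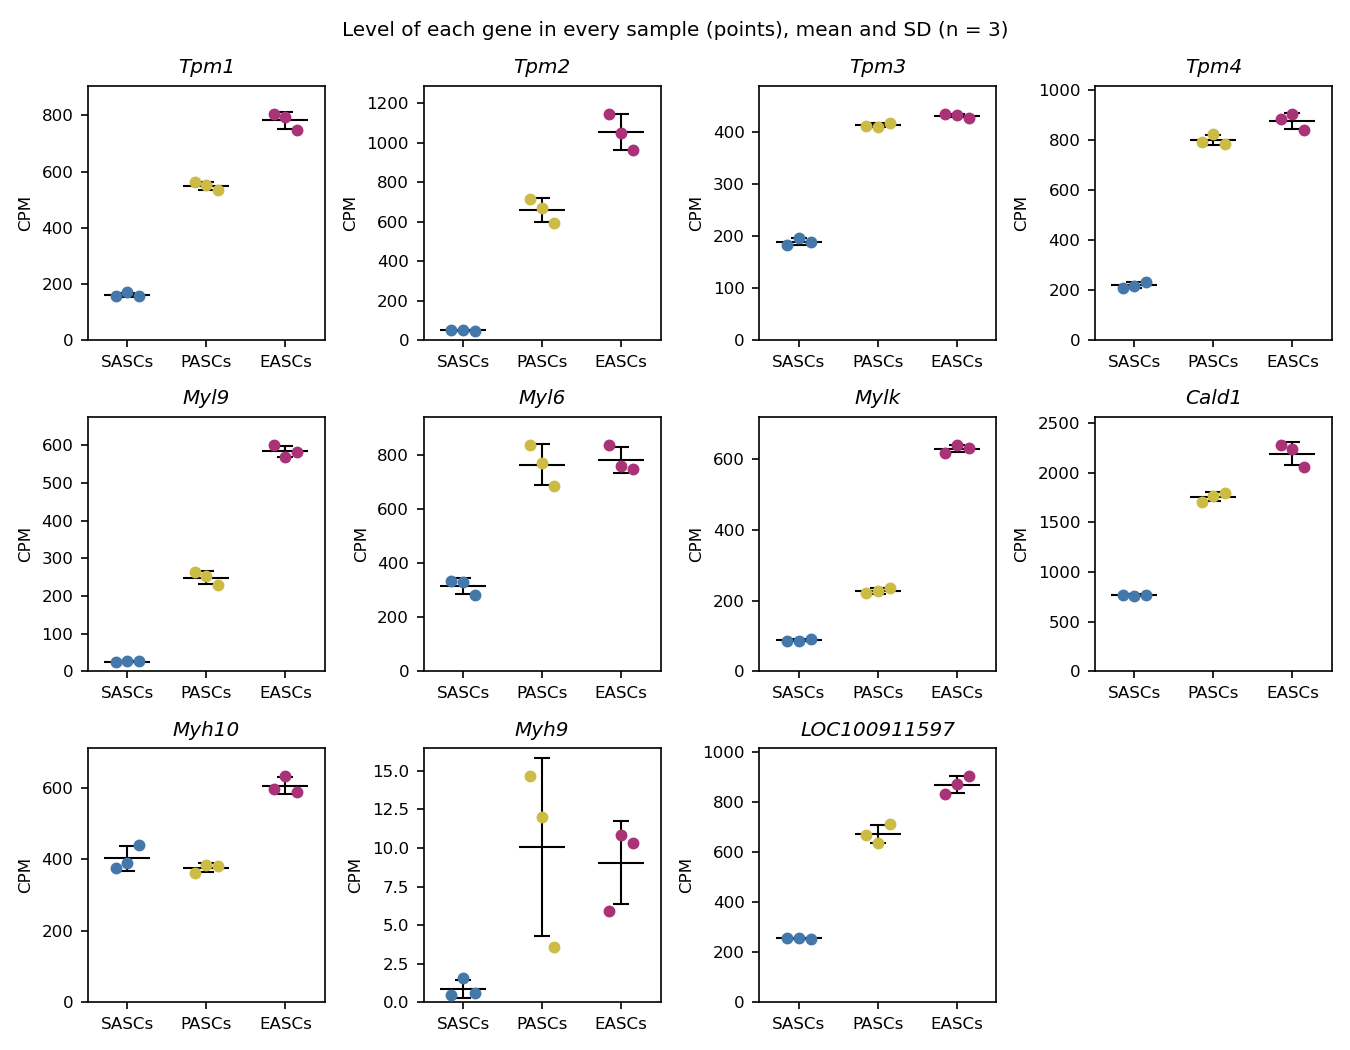
Level of each gene in every sample, in TMM-normalized CPM on a linear axis from 0, with points for the 3 samples of each group and bars for the mean ± SD. Myl9 and Mylk rise in 2 steps from SASCs to PASCs to EASCs, Tpm3 and Myl6 sit at near the same level in PASCs and EASCs, and the Myh10 samples of PASCs and SASCs overlap.

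Among the tropomyosin genes, Tpm2 (chr5:59016616-59025971, minus strand) had the largest difference. Positions are those of the count table, read as build rn6. Tpm2 encodes the beta chain, which is abundant in smooth muscle. Its levels were 52.0, 54.1 and 49.9 CPM in SASCs, 713, 670.1 and 596 CPM in PASCs and 1143, 1049 and 961 CPM in EASCs. The 3 groups did not overlap, with every EASCs sample above every PASCs sample and the SASCs samples far below both. The log2 fold change was 4.34 ± 0.0773 (SE) in EASCs against SASCs (adjusted p = 4.46e-26), 3.66 ± 0.0753 (SE) in PASCs against SASCs (adjusted p = 1.15e-24) and 0.67 ± 0.0662 (SE) in EASCs against PASCs (adjusted p = 4.58e-09).

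Tpm1 (chr8:72814737-72841496, minus strand), the gene of the alpha chain, is the source of many muscle and nonmuscle isoforms. It measured 157, 170.3 and 159 CPM in SASCs, 564, 551 and 535.5 CPM in PASCs and 804, 794 and 749 CPM in EASCs. The groups were again ordered without overlap, and the log2 fold change was 2.27 ± 0.0574 (SE) in EASCs (adjusted p = 8.5e-23) and 1.77 ± 0.0566 (SE) in PASCs (adjusted p = 1.97e-20), each against SASCs. EASCs exceeded PASCs by 0.51 ± 0.0545 (SE) on the log2 scale (adjusted p = 2.23e-08).

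Tpm3 (chr2:189423539-189451345, plus strand) and Tpm4 (chr16:19385810-19399851, minus strand) supply mainly nonmuscle isoforms. Tpm3 measured 183, 196 and 189 CPM in SASCs, 413, 410.5 and 418 CPM in PASCs and 435, 434 and 429 CPM in EASCs. It was 2.28-fold higher in EASCs and 2.19-fold higher in PASCs than in SASCs, by fitted values. In EASCs against PASCs the log2 fold change of Tpm3 was 0.06 (95% confidence interval -0.04 to 0.17, adjusted p = 0.384), and it was -0.01 without TMM. Tpm4 measured 210.0, 216 and 234 CPM in SASCs, 793.5, 823 and 785 CPM in PASCs and 884, 904 and 842 CPM in EASCs. Its log2 fold change was 1.99 ± 0.0580 (SE) in EASCs (adjusted p = 1.92e-21) and 1.86 ± 0.0578 (SE) in PASCs (adjusted p = 9.3e-21). In EASCs against PASCs Tpm4 gave 0.13 (95% confidence interval 0.02 to 0.24, adjusted p = 0.0766), and it passed with DESeq2 (adjusted p = 0.0361) and without the third EASCs sample (adjusted p = 0.0422).

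The genes changed by unequal amounts, and their makeup within a sample differed between sites. Levels of different genes are compared here per length, as CPM per kilobase of the length listed for each gene (FPKM). The summed level of the 4 tropomyosin genes was 356 ± 13.8 FPKM in SASCs, 1485 ± 48.0 in PASCs and 1849 ± 85.5 in EASCs (SD, n = 3). Tpm2 held 7.94 ± 0.52% of that sum in SASCs, 24.1 ± 1.5% in PASCs and 30.8 ± 1.42% in EASCs. Tpm3 went the other way, with 10.7 ± 0.40% for SASCs, 5.61 ± 0.23% for PASCs and 4.71 ± 0.18% for EASCs. Tpm4 held 69.0 ± 1.55%, 60.2 ± 1.35% and 53.0 ± 1.21%, and Tpm1 held 12.3 ± 0.65%, 10.1 ± 0.17% and 11.5 ± 0.10%, in the same order of groups. For none of the 4 shares did any pair of groups overlap, and each pair gave p = 0.1 in a two-sided exact permutation test, the smallest p that 3 samples against 3 allow. The Tpm4 share rests on a listed length of 895 bases, well under the 1841 to 4977 bases of the other tropomyosin genes. In counts without division by length the Tpm4 share was 35.3%, 33.0% and 27.9% and the Tpm2 share 8.35%, 27.2% and 33.4%. On that scale Tpm3 held 30.4%, 17.1% and 13.8% and Tpm1 26.0%, 22.7% and 24.9%, each more than 2-fold above its share per length.

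**Figure D2:**
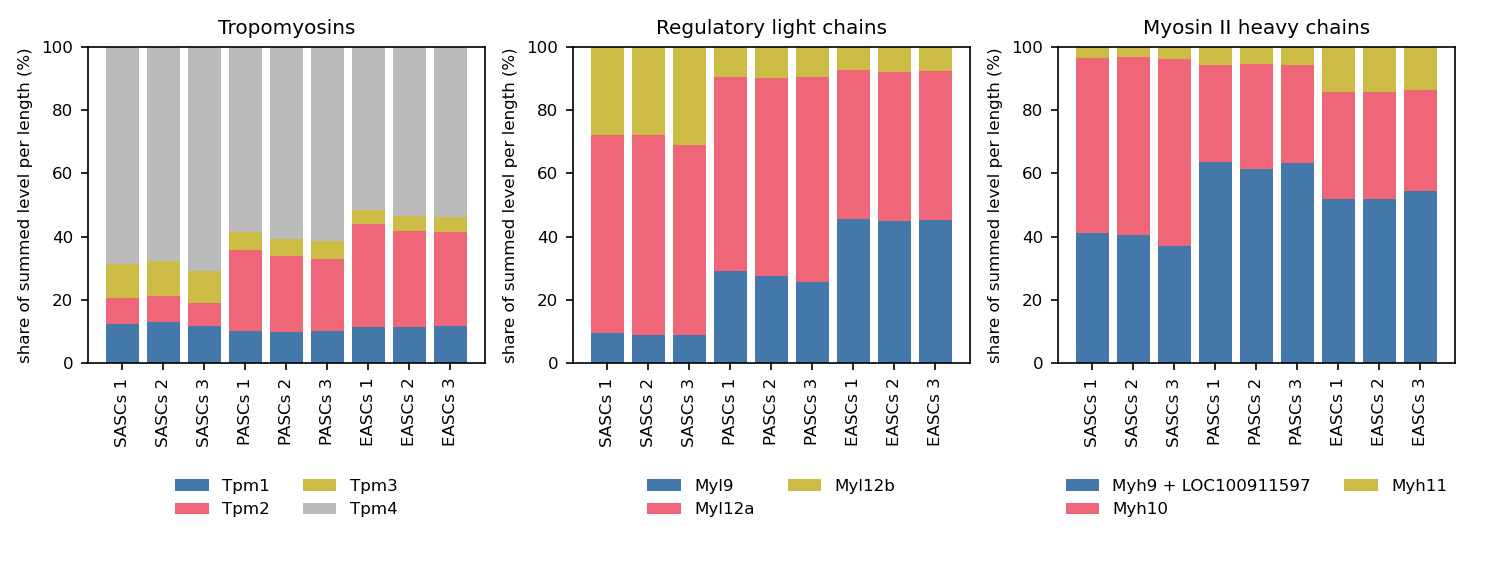
Share of each gene in the summed level per length (CPM per kilobase) of the tropomyosins, the regulatory light chains and the myosin II heavy chains, in percent, 1 stacked bar per sample. The Tpm2 and Myl9 segments are widest in the 3 EASCs samples and narrowest in the 3 SASCs samples, and Myh10 is the largest heavy chain segment in SASCs.

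Of the light chains, Myl9 (chr3:152857575-152863961, plus strand) encodes a regulatory light chain typical of smooth muscle and stress fibers. It measured 25.7, 26.7 and 26.4 CPM in SASCs, 264, 252 and 229 CPM in PASCs and 599.9, 569.9 and 582 CPM in EASCs. No samples of different groups overlapped, and the spread within a group was small beside the gaps. The log2 fold change was 4.48 ± 0.0667 (SE) in EASCs against SASCs (adjusted p = 1.04e-27), the largest of the 10 genes. It was 3.24 ± 0.0645 (SE) in PASCs against SASCs (adjusted p = 6.36e-25) and 1.23 ± 0.0563 (SE) in EASCs against PASCs (adjusted p = 5.88e-16).

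Myl6 (chr7:2906137-2909179, minus strand) encodes the essential light chain of nonmuscle and smooth muscle myosin. It measured 334, 328 and 282 CPM in SASCs, 834, 768.5 and 684 CPM in PASCs and 834, 759 and 748 CPM in EASCs. Both visceral groups lay above SASCs, by 1.31 on the log2 scale for EASCs (adjusted p = 2.9e-15) and by 1.27 for PASCs (adjusted p = 5.4e-15). EASCs and PASCs overlapped, and their log2 fold change was 0.03 (95% confidence interval -0.11 to 0.18, adjusted p = 0.77) and -0.03 without TMM. The description of the Myl6 row in the count table ends in "-like", and reads of near-identical copies could have been counted for either gene. Within a sample, the log2 ratio of Myl9 to Myl6 counts was -3.58 ± 0.144 in SASCs, -1.62 ± 0.043 in PASCs and -0.42 ± 0.057 in EASCs (SD, n = 3), with no overlap between groups (p = 0.1 for each pair, two-sided exact permutation test). Per listed length the same ratios were -3.02, -1.05 and 0.15, so the sign in EASCs depended on the scale while the differences between groups did not.

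The other regulatory light chains, Myl12a and Myl12b, were set beside Myl9 after their values had been seen, so their shares are given without a test. Per length, Myl9 made up 9.0 ± 0.30% of the 3 regulatory light chain genes in SASCs, 27.4 ± 1.66% in PASCs and 45.3 ± 0.35% in EASCs. Myl12a made up 62.1%, 63.1% and 47.1%, and Myl12b 28.9%, 9.56% and 7.56%, in the same order. Myl12a itself was higher in both visceral groups (log2 fold change 1.75 in EASCs and 1.66 in PASCs). Myl12b gave 0.21 on the log2 scale for EASCs (adjusted p = 0.00528), -0.19 without TMM (adjusted p = 0.315), 0.14 without the first SASCs sample (adjusted p = 0.0671), and 0.04 in PASCs (adjusted p = 0.589).

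Mylk (chr11:69013060-69260037, minus strand) encodes the kinase that phosphorylates the regulatory light chains in response to calcium and calmodulin. It measured 86.2, 86.5 and 91.2 CPM in SASCs, 221, 227 and 237 CPM in PASCs and 619, 640.0 and 632 CPM in EASCs. Its step between PASCs and EASCs, a log2 fold change of 1.47 ± 0.0534 (SE, adjusted p = 4.63e-18), was the largest of the 10 genes in that comparison, and its step between SASCs and PASCs was 1.38 ± 0.0549 (SE, adjusted p = 2.62e-18). Cald1 (chr4:62104115-62291375, plus strand) measured 772, 758 and 773 CPM in SASCs, 1710, 1764 and 1800 CPM in PASCs and 2277, 2236 and 2058 CPM in EASCs. The groups did not overlap, and the log2 fold change of Cald1 was 1.51 ± 0.0578 (SE) in EASCs (adjusted p = 9.85e-19) and 1.20 ± 0.0574 (SE) in PASCs (adjusted p = 1.77e-16). In EASCs against PASCs Cald1 gave 0.32 (adjusted p = 6.67e-05), and 0.25 without TMM (adjusted p = 0.373). Mylk and Cald1 each overlap another listed gene, and both of those had 0 counts in every sample.

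**Figure D3:**
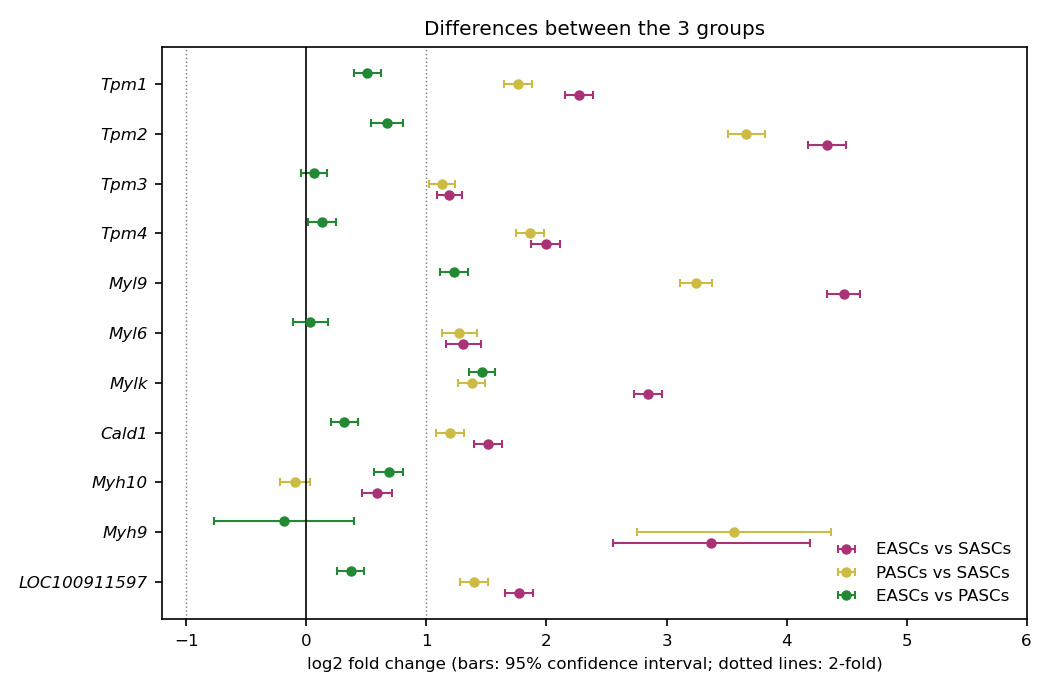
Log2 fold change of each gene in the 3 comparisons, with 95% confidence intervals from the edgeR fit and dotted lines at a 2-fold change. Intervals of EASCs against PASCs span 0 for Tpm3, Myl6 and the row named Myh9, and the interval of Myh10 in PASCs against SASCs spans 0.

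Myh10 (chr10:55274914-55406738, plus strand), the heavy chain of nonmuscle myosin IIB, had the smallest differences from SASCs of the 10 genes. It measured 377, 390.0 and 441.5 CPM in SASCs, 362.5, 386 and 383 CPM in PASCs and 597, 633 and 588 CPM in EASCs. EASCs lay above both other groups, while PASCs and SASCs overlapped. Its log2 fold change was 0.59 ± 0.0597 (SE) in EASCs against SASCs (adjusted p = 1.49e-09), 0.69 ± 0.0598 (SE) in EASCs against PASCs (adjusted p = 4.39e-10) and -0.10 in PASCs against SASCs (95% confidence interval -0.22 to 0.03, adjusted p = 0.156). Without TMM the median of all genes was -0.39 in EASCs and -0.33 in PASCs against SASCs, and on that scale Myh10 gave 0.20 for EASCs (adjusted p = 0.278) and -0.42 for PASCs (adjusted p = 0.0194).

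The heavy chain of nonmuscle myosin IIA is encoded by Myh9, but the row named Myh9 held few reads. It lies on chr7:118741153-118792504, minus strand, and had 0.487, 1.57 and 0.586 CPM in SASCs, 14.7, 12.0 and 3.60 CPM in PASCs and 5.95, 10.9 and 10.3 CPM in EASCs. A second row, LOC100911597, lies on chr7:118991252-119071721 of the same strand and measured 256, 257 and 252 CPM in SASCs, 669, 637 and 711 CPM in PASCs and 833, 872 and 902 CPM in EASCs. The row named Myh9 held between 0.190 and 2.14% of the counts of both rows. Its gene ID is the number in the name of the other row. In the count table Apol2 neighbors the row named Myh9 and Txn2 lies beyond LOC100911597, whereas RefSeq on GRCr8 lists a single Myh9 between Apol2 and Txn2 and no LOC100911597. The row named Myh9 is therefore not by itself a measure of the gene. LOC100911597 was brought in after its values had been seen.

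The row named Myh9 gave a log2 fold change of 3.37 ± 0.399 (SE) in EASCs and 3.56 ± 0.394 (SE) in PASCs against SASCs, with SASCs below every visceral sample. Without the second SASCs sample these became 4.08 and 4.27, and the lowest values with a sample left out were 3.024 and 3.205. In EASCs against PASCs it gave -0.19 (95% confidence interval -0.77 to 0.40, adjusted p = 0.67), and without the third PASCs sample, the lowest of its group, -0.56 (adjusted p = 0.0479). The sign turned without the first PASCs sample (0.17, adjusted p = 0.748) and without the first EASCs sample (0.04, adjusted p = 0.943). LOC100911597 gave 1.77 ± 0.0571 (SE) in EASCs (adjusted p = 2.11e-20), 1.40 ± 0.0566 (SE) in PASCs (adjusted p = 3.75e-18) and 0.37 in EASCs against PASCs (adjusted p = 5.68e-06), which without TMM was 0.29 (adjusted p = 0.265). With the counts of both rows summed, EASCs against PASCs gave 0.36 (adjusted p = 6.47e-06). The log2 ratio of the row named Myh9 to Myh10 was -9.04 ± 0.94 in SASCs, -5.46 ± 1.12 in PASCs and -6.12 ± 0.46 in EASCs (SD, n = 3), with p = 0.1 for each visceral group against SASCs and p = 0.5 between them (two-sided exact permutation test). For LOC100911597 to Myh10 the log2 ratio was -0.66 ± 0.131, 0.83 ± 0.094 and 0.52 ± 0.085.

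Myh11, the smooth muscle heavy chain, was set beside these rows without a test of its share, which was computed after its values had been seen. The sum used here leaves out the sarcomeric heavy chain rows, of which Myh7b and Myh1 reached 433 and 416 counts in a sample, beside 383 for the row named Myh9. A search of row descriptions for tropomyosin, caldesmon and myosin light or heavy chains also returned LOC103693756, which reached 311467 counts in a sample. It entered none of the sums or shares of gene families given here, and its identity was not examined. Per length, the rows Myh9 and LOC100911597 together held 39.6 ± 2.21% of the heavy chain sum in SASCs, 62.8 ± 1.26% in PASCs and 52.7 ± 1.46% in EASCs (SD, n = 3). Myh10 held 57.0%, 31.7% and 33.3%, and Myh11 3.42%, 5.54% and 14.1%. Myh10 held the largest share in SASCs, and the rows Myh9 and LOC100911597 together did in both visceral groups.

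By level per length, Tpm4 led the 10 genes in every group, at 246 ± 13.9 FPKM in SASCs, 894.5 ± 22.6 in PASCs and 979.5 ± 35.1 in EASCs (SD, n = 3), subject to its short listed length. In SASCs it was followed by Myl6 (184 FPKM), Cald1 (123 FPKM), Myh10 (49.8 FPKM), Tpm1 (43.9 FPKM), Tpm3 (38.0 FPKM), Tpm2 (28.2 FPKM), Myl9 (22.7 FPKM), Mylk (10.1 FPKM) and the row named Myh9 (0.145 FPKM). In EASCs Tpm2 (571 ± 49.4 FPKM) and Myl9 (506 ± 13.1 FPKM) came next, ahead of Myl6 (456 ± 27.3 FPKM) and Cald1 (352 FPKM). Myh10 (74.9 ± 2.93 FPKM) and Mylk (72.1 ± 1.20 FPKM) did not differ beyond their spread in EASCs.

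Over the 9 samples, the genes whose log2 CPM ran closest to each of the 10 were found by Pearson's r, given as a description. The 9 points are 3 groups of 3 libraries, so r takes in the differences between groups as well as those within them. For Tpm1 the closest were Acta2 (r = 0.9992), Cnn1 and Pdlim1, for Tpm2 Ube2k (0.9997), Tagln and Csrp1, for Tpm3 Myl12a (0.9998), Wdr1 and Pak1, and for Tpm4 Akap12 (0.9996), Msn and Pdlim7. For Myl9 they were Ckb, Plekha2 and Acta2, for Myl6 Atp5b, Ramp3 and Akr1a1, for Mylk Akap2, Tgfb3 and Mfge8, and for Cald1 Dstn, Plod2 and Fermt2. For the row named Myh9 they were Eef2, Exosc10 and Gatsl3, and for Myh10 Ror2 (0.9877), Flrt2 and Eml4. Among the 10 genes, r between Myh10 and the others lay between 0.337 and 0.793, and r between any other pair between 0.783 and 0.998.

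The other genes of the pathway were taken as lists. Of 15 further myosin II subunits, 4 were tested, and all 4 were higher in EASCs than in SASCs by adjusted p, beside 35.5% of all genes, 3 of them also by more than 2-fold, beside 13.6%. The fourth, Myl12b, did not pass without TMM or without the first SASCs sample. The list left out 3 sarcomeric heavy chain genes that were tested, named here after their values were seen, and they did not all go the same way. Myh7b was lower (log2 fold change -1.15 in EASCs and -0.97 in PASCs), and Myh1 (2.56 and 2.77) and Myh2 (2.16 and 2.52) were higher. On the log2 scale Myh11 exceeded SASCs by 3.41 in EASCs and 1.45 in PASCs, and Myl4, an atrial and embryonic essential light chain, 3.05 and 2.74 from a mean of 0.322 CPM in SASCs. The list had a median of 2.40 in EASCs against SASCs, where all genes had 0.01.

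Of 27 tested genes that control light chain phosphorylation, 19 were higher and 5 lower in EASCs than in SASCs by adjusted p, with a median log2 fold change of 0.64, where 35.5% of all genes were higher and 34.3% lower. Without TMM these counts were 8 and 6, on a scale where the median log2 fold change of all genes was -0.39. The shares of all genes higher and lower by adjusted p on that scale are not given here. DEGs numbered 7 higher and 2 lower, where 13.6% of all genes were DEGs higher and 14.2% DEGs lower in EASCs. Without TMM there were 3 and 2 DEGs, on a scale where 28.3% of the DEGs among all genes were higher. Ppp1r14a, the gene of the myosin phosphatase inhibitor CPI-17, rose by a log2 fold change of 2.77 in EASCs and 2.74 in PASCs, and Pak1, a kinase acting downstream of Rac and Cdc42, by 2.41 and 2.26. Ppp1r14c, a relative of CPI-17, fell by 2.41 and 1.10 on the log2 scale, and Dapk1, a death-associated protein kinase, by 2.39 and 3.26.

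Of 19 tested partners that cap or bind actin filaments, 14 were higher and 4 lower in EASCs than in SASCs, where 35.5% and 34.3% of all genes were, with a median of 1.64. Of these, 13 of the higher and 1 of the lower were DEGs, beside 13.6% and 14.2% of all genes. In PASCs 13 were higher and 5 lower, beside 34.6% and 34.6% of all genes, and 11 and 1 were DEGs, beside 12% and 14.9%. Without TMM DEGs numbered 11 higher and 2 lower in EASCs and 10 and 3 in PASCs. On that scale 1349 of 4775 DEGs among all genes were higher in EASCs and 1262 of 4431 in PASCs. Cnn1, the gene of calponin 1, differed from SASCs by 6.99 (log2) in EASCs and 5.43 in PASCs, Tagln, which encodes transgelin, 5.59 and 4.67, Lmod3, a leiomodin that nucleates actin, 4.57 and 2.31, and Lmod1, the smooth muscle leiomodin, 3.85 and 3.04. Of 4 tested regulators of heavy chain assembly, 0 were higher and 2 lower in EASCs by adjusted p (edgeR quasi-likelihood test), beside 34.3% of all genes lower, namely Trpm7 (log2 fold change -0.98), a channel with a kinase domain, and Llgl1 (-0.22), a polarity protein. DESeq2 gave the same counts of 0 and 2, and without TMM, where the median of all genes was -0.39, they were 0 and 3. Neither was a DEG with edgeR, and 1 gene was a DEG lower in EASCs with DESeq2 and 1 without TMM. In PASCs 2 were lower and S100a4, which encodes a calcium-binding protein, was higher (log2 fold change 0.85, adjusted p = 6.32e-11), beside 34.6% and 34.6% of all genes. One of the 2, Llgl1 (-0.14, adjusted p = 0.0454), lost its call when single samples were left out.

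Serum response factor and 3 of its cofactors were tested. The log2 difference from SASCs was, for Srf, 1.07 in EASCs and 1.09 in PASCs, and its cofactor gene Mkl1 0.95 and 0.80, all with an adjusted p under 0.05. Myocd, the gene of the smooth muscle cofactor myocardin, measured 1.22, 1.19 and 1.22 CPM in SASCs, 1.41, 1.23 and 0.741 CPM in PASCs and 4.48, 5.07 and 5.05 CPM in EASCs. Only the EASCs samples stood apart for Myocd, by 2.01 on the log2 scale against SASCs and 2.07 against PASCs, while PASCs gave -0.06 against SASCs (adjusted p = 0.849). Mkl2 gave 0.02 in EASCs (adjusted p = 0.957).

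**Figure D4:**
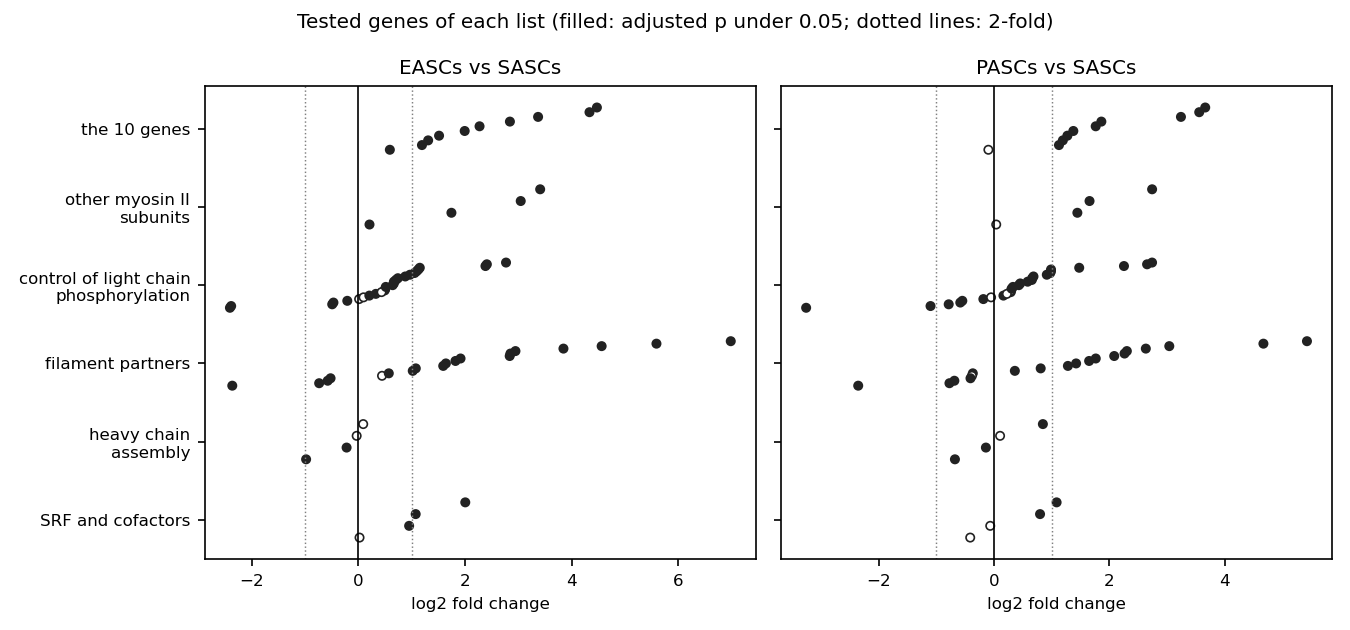
Log2 fold change against SASCs of the 10 genes and of the tested genes of each list, in EASCs (left) and PASCs (right), 1 point per gene, filled where the adjusted p was under 0.05. Most filament partners lie right of 0 in both, and the control genes of light chain phosphorylation lie on both sides.

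Markers of other cell types also moved with the groups, and their part in the results was not tested. The 6 smooth muscle markers, all tested, summed to 81.7 to 87.5 CPM for SASCs, 277.7 to 290.5 CPM for PASCs and 781 to 817 CPM for EASCs, and all 6 were DEGs higher in EASCs than in SASCs, beside 13.6% of all genes. In PASCs 5 were DEGs higher, beside 12% of all genes, and Synpo2 was lower (log2 fold change -0.69, adjusted p = 0.00101). Without TMM 5 were DEGs higher in EASCs and 5 in PASCs, and 1 was a DEG lower in PASCs. On that scale 1349 and 1262 of all genes were DEGs higher. Of the smooth muscle markers, Myh11 is also in the list of myosin II subunits, and Smtn, Lmod1 and Synpo2 are in that of filament partners. Mesothelial markers summed to 18.4 to 20.02 CPM for SASCs, 94.5 to 101 CPM for PASCs and 129 to 141 CPM for EASCs, and 6 of 7 were tested and higher in both visceral groups by adjusted p, beside 35.5% of all genes in EASCs and 34.6% in PASCs. Macrophage and leukocyte markers summed to 46.4 to 51.0, 114 to 118 and 164 to 173 CPM in the same order, with 5 of 6 measured and all 5 higher in both, beside the same shares of all genes. Without TMM 4 were higher in EASCs and 2 in PASCs, and with DESeq2 5 and 4. The median log2 fold change of all genes without TMM was -0.39 in EASCs and -0.33 in PASCs. Endothelial markers summed to 41.6 to 44.2, 11.5 to 14.3 and 29.3 to 32.1 CPM. Of these 5 genes, 4 were lower in PASCs, beside 34.6% of all genes, while in EASCs 2 were lower, beside 34.3%, and Cdh5 and Vwf did not pass (adjusted p = 0.561 and 0.928). Tek was higher in both visceral groups, by 1.66 on the log2 scale in EASCs and 1.71 in PASCs. Adipocyte markers summed to 55.3 to 60.7, 13.5 to 14.4 and 5.64 to 6.20 CPM. Skeletal muscle markers summed to 4.44 to 9.93, 5.53 to 6.04 and 17.0 to 19.1 CPM. The 9.93 was that of the second SASCs sample. There Ttn had 69 counts, beside 2 and 1 in the other SASCs samples, and Ckm 10, beside 0 and 0. Of the 10 markers, 7 did not pass the filter on low counts. Of the 3 tested, Acta1 was higher in EASCs, at 15.8 CPM on average beside 0.248 CPM in SASCs, and Tnnt3 (log2 fold change -1.08) and Myod1 were lower, Myod1 with 8, 4 and 8 counts in SASCs and 0 in every EASCs sample.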

How the data were processed

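RNA-seq was analysed in 9 samples, 3 each of SASCs, PASCs and EASCs, grouped by their labels. The authors deposited counts of reads per gene, whole numbers that are not normalized. The submitters' processing notes name TopHat2 and rn5, and the study's methods name another build, rn6. Positions in the table reach 159953194 on chromosome X, past its end in rn5, so they are read here as rn6. The counting tool, strand use and treatment of reads matching several genes are not given in the sources used here. In R 4.3.3, edgeR 4.0.16 was used on the counts with TMM and filterByExpr (14770 genes tested), with 1 quasi-likelihood model of the 3 groups and no block, and Benjamini-Hochberg adjustment within each comparison. DEGs had an adjusted p under 0.05 and a fold change above 2. The common biological coefficient of variation was 0.0685. Shares and ratios were compared by two-sided exact permutation tests. On simulated data for EASCs against SASCs with 14770 genes, 189 of 200 genes changed by 2.5-fold were recovered, and 15 unchanged genes were called. In the data far more genes differed, 35.5% higher and 34.3% lower by adjusted p, so the simulation does not give error rates for that setting. FPKM was computed here from TMM-normalized CPM and the listed length.

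The text names all 10 genes, for each list at most the 4 genes with the largest change in EASCs against SASCs among those with an adjusted p under 0.05 (and genes needed to explain small counts), and the 3 genes closest to each of the 10. The genes and lists were chosen with earlier results of these data known. Alternatives were DESeq2 1.42.0, total counts without TMM, no filter on low counts, only the groups compared, a replicate block, each sample left out in turn, and, for ratios and shares, the use of length. The sum of the rows Myh9 and LOC100911597 was added after the data were examined. Depth ranged from 17591916 to 30299032 counts, and intervals come from the edgeR fit. Age is given in the study's methods.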

Additional observations from a re-analysis of the deposited data

How the results depend on the processing

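The number of the 10 genes called as DEGs was 9 in EASCs and 9 in PASCs against SASCs, and 2 in EASCs against PASCs, under DESeq2, without the filter on low counts, with only the groups compared, with rows Myh9 and LOC100911597 summed and with each sample left out. Without TMM it was 7, 6 and 2. On that scale Tpm3 (0.80 in EASCs and 0.80 in PASCs) and Myl6 (0.91 and 0.95) fell under a 2-fold change in both visceral groups, and Cald1 (0.87) in PASCs. The median log2 fold change of all genes was then -0.39, -0.33 and -0.08 in the 3 comparisons, and 28.3% of DEGs in EASCs and 28.5% in PASCs were higher than in SASCs, beside 48.8% and 44.7% with TMM. Without TMM Myl12b in EASCs against SASCs turned to -0.186 (adjusted p = 0.315), and with the rows summed Myh9 in EASCs against PASCs turned to 0.363 (adjusted p = 6.47e-06). Llgl1 in PASCs against SASCs (log2 fold change -0.14) and Myl12b and Pak1 in EASCs against PASCs (0.17 and 0.15) passed by little and lost the call when single samples were left out and under 1 or more other settings, and the cause was not tested. Myl12b in EASCs against SASCs also lost its call without the first SASCs sample (0.14, adjusted p = 0.0671).

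In a fit that took replicate number as a block, calls were 9, 9 and 2, and no gene of the 10 changed its call. No pairing by number was seen. Over 9 pairs with the same number the correlation of deviations lay between -0.0348 and 0.038, and 1 of 9 samples correlated best with its own number. If the samples of a group differ only technically, this cannot show whether samples with the same number share a rat. Few reads fell on the row named Myh9, with under 2 CPM in SASCs beside 252 to 257 CPM for LOC100911597. Levels per length rest on the listed lengths.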
